A study of Rattus norvegicus with 16 samples.

Results

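The genes of the unfolded protein response and of protein degradation from the endoplasmic reticulum (ER) were followed in rat aortic smooth muscle cells after knockdown of Nat10. The module was a list of 32 gene symbols. Each was matched to the gene name column of the expression table, where each had 1 row among 32883 genes, and its Ensembl gene ID was then looked up in the peak lists. NAT10 is the enzyme that places N4-acetylcytidine (ac4C) on RNA. The cells had been grown in medium with 20% serum, and received adenovirus for 48 h.

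The Adsh libraries came from cells given an adenovirus that carried a hairpin RNA targeting Nat10, labelled NAT10 knockdown. The Adcon libraries came from cells given a control adenovirus, labelled wild type. Both groups therefore carried virus, and each had 3 input RNA libraries and 3 libraries immunoprecipitated with an antibody against ac4C. RNA bound to NAT10 was immunoprecipitated (NAT10 RIP) in 3 libraries of wild type cells whose labelled treatment is none. The labels do not give the strain, the age or the number of animals behind the cultures, so the spread behind each p-value may be partly or wholly technical.

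The ER folds the proteins a cell secretes or places in its membranes. When unfolded proteins collect there, the sensors Ern1, Eif2ak3 and Atf6 signal to the nucleus: Ern1 splices the mRNA of the transcription factor XBP1, Atf6 is cut to release a transcription factor, and Eif2ak3 phosphorylates eIF2alpha, which slows translation in general while favouring that of Atf4. The targets are chaperones that add folding capacity, the degradation machinery that returns failed proteins to the cytosol, and, through Atf4 and Ddit3, genes of amino acid supply and of cell death. Smooth muscle cells of the artery wall secrete collagens and other matrix proteins, whose folding runs through this compartment.

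Nat10 itself stood at 4.38, 3.68 and 4.58 FPKM (fragments per kilobase of a gene's length, scaled by the authors between libraries) in Adsh libraries 1 to 3, against 7.69, 9.22 and 9.95 FPKM in Adcon libraries 1 to 3. Every Adsh library lay below every Adcon library, and limma gave an adjusted p of 0.227. Fragments recovered from the FPKM values numbered 6417941 to 7468528 per Adsh library and 8171176 to 12065991 per Adcon library. The share of fragments from protein-coding genes was lowest in Adsh 2 at 94.6%, against 96.2% and 96.5% in the other Adsh libraries and 97.5% to 97.6% in the Adcon libraries. Markers of contractile smooth muscle were present, led by Tagln, an actin-binding protein, at a mean of 1165 FPKM in Adsh and 2824 FPKM in Adcon. Summed over the 8 contractile markers, the level was 1311, 682 and 3295 FPKM in Adsh 1 to 3 and 4190 to 5737 FPKM in Adcon, and 6 of the 7 markers tested had an unadjusted limma p under 0.05 with lower Adsh values. Endothelial markers summed to 6.25 to 22.1 FPKM in Adsh and 7.86 to 13.5 FPKM in Adcon, mostly from the receptor Flt1, with Cdh5 at 0 in all Adcon libraries and in 2 of the 3 Adsh libraries. Leukocyte markers summed to 5.28 to 12.0 FPKM in Adsh and 3.83 to 5.66 FPKM in Adcon, mostly from Cd68, with Cd3e and Cd79b at 0 in every library. Fibroblast markers, led by Lum, summed to 194 to 267 FPKM in Adsh and 297 to 319 FPKM in Adcon. Of the 7 fibroblast markers tested, 3 also had an unadjusted limma p under 0.05 with lower Adsh values. The share of all genes with such a p and lower Adsh values was 6.95%. In bulk RNA, fewer cells of a type and less RNA per cell cannot be told apart.

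Across the module, no group-wide change passed the threshold, and the 3 Adsh libraries went different ways. Most ER chaperones, co-chaperones and degradation genes were highest in Adsh 2, by margins from slight to large, with Hspa5 7.89 times and Ddit3 5.69 times the Adcon mean there, while both genes lay below all Adcon libraries in Adsh 1 and Adsh 3. Known targets of ATF4 were mixed in Adsh 2: beside Ddit3, itself one of them, Chac1 stood there at 0.205, Asns at 0.576, Sesn2 at 0.764 and Ppp1r15a at 0.860 times the Adcon mean. The sensor Ern1 stood higher, and the degradation gene Edem1 lower, in all 3 Adsh libraries, with limma adjusted p of 0.273 and 0.325. They were among 5 members wholly above and 2 wholly below the Adcon range, against 9.63% and 10.9% of all genes.

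All 32 members had a mean of at least 1 FPKM over the 6 libraries and entered the fit of 13450 genes. None passed an adjusted p of 0.05 in limma, and none of the 13450 genes did (0.0%). At an unadjusted p under 0.05, 1 member stood higher in Adsh, against 5.53% of all genes, and 2 stood lower, against 6.95%. The members' median log2 change was 0.04, next to -0.01 over all genes, with 18 positive and 14 negative. The Adsh range lay wholly above the Adcon range for 5 members, Dnajb11, Sdf2l1, Manf, Ern1 and Gfpt1, against 9.63% of all genes. It lay wholly below for 2, Edem1 and Trib3, against 10.9% of all genes. Read against those shares, counts of this size are no result about the module.

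The members' values were spread widely within the Adsh group. Adsh 2 held the highest value of the 6 libraries for 20 of the 32 members (62.5%), against 26.3% of all genes, and the lowest for 5 (15.6%), against 27.1%. Adsh 1 held the lowest value for 11 members (34.4%), against 18.8% of all genes. The members' median distance from the Adcon mean, on the log2(FPKM + 1) scale, was -0.34 in Adsh 1, 0.52 in Adsh 2 and -0.11 in Adsh 3, while over all genes it was -0.01 in each of the 3. Adsh 2 was also the library with the lowest contractile marker sum and the lowest protein-coding share, and the part of either in these values was not tested. Without Adsh 2 the members' median log2 change was -0.21, and at an unadjusted limma p under 0.05, 1 member stood higher and 4 stood lower, while 2139 of 13372 genes had such a p in either direction, a similar share.

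**Figure D1:**
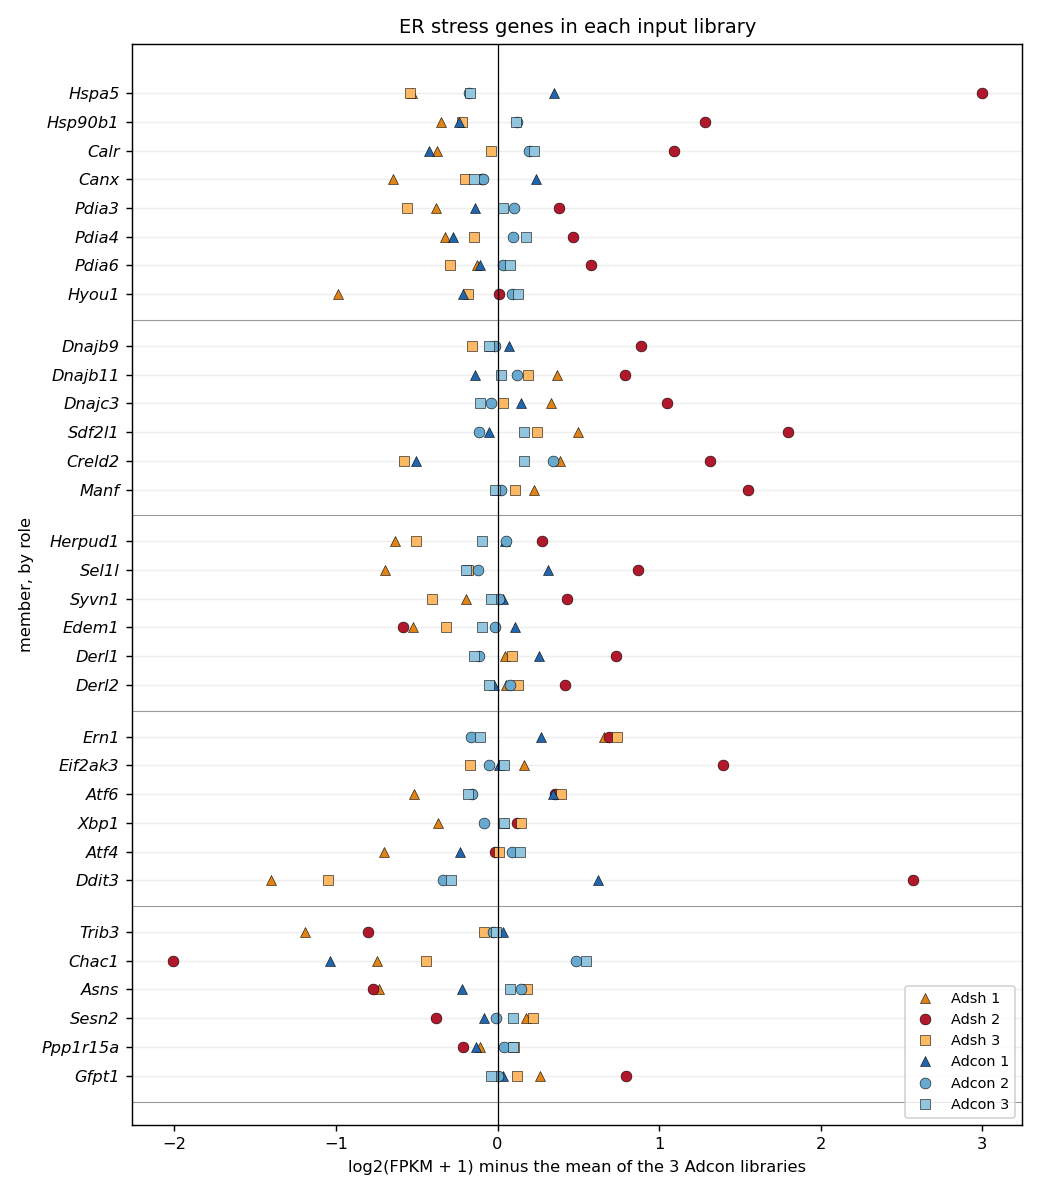
Each row is a member, grouped by role from chaperones at the top to ATF4 and CHOP outputs with Gfpt1 at the bottom. Each symbol is 1 input library. The x axis is the library's log2(FPKM + 1) minus the mean of the 3 Adcon libraries. Adsh 2 is the rightmost symbol for most members of the first 3 groups and for Ddit3, and to the left for Chac1, while Ern1 has all 3 Adsh libraries together on the right.

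The chaperones and folding enzymes of the ER lumen were the most abundant members, and Adsh 2 held the highest value for 6 of the 8. Hspa5 (ENSRNOG00000018294), the HSP70 of the ER lumen known as BiP, stood at 239, 2768 and 237 FPKM in Adsh 1 to 3, against 440, 305 and 307 FPKM in Adcon 1 to 3. These values rest on 4486, 57907 and 4195 recovered fragments in Adsh and on 12974, 6107 and 6520 in Adcon. Adsh 2 stood 6.29 times above the next library, and the other Adsh libraries were the lowest of the 6. Of the 13450 genes, 25, Hspa5 included, lay at least this far above their Adcon mean in that library. The group means were 1081 ± 1460 FPKM in Adsh and 351 ± 77.5 FPKM in Adcon (SD, n = 3 each). The limma log2 change was 0.64 with a standard error of 0.91 and an adjusted p of 0.801, and it was -0.53 without Adsh 2.

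Hsp90b1 (ENSRNOG00000026963), the HSP90 of the ER known as GRP94, had 308, 959 and 338 FPKM in Adsh 1 to 3, against 334, 427 and 426 FPKM in Adcon 1 to 3. Calr (ENSRNOG00000003029), which binds calcium and folds glycoproteins, had 412, 1143 and 520 FPKM in Adsh and 398, 614 and 627 FPKM in Adcon. Both were highest in Adsh 2, while their other Adsh values lay within or just below the Adcon range. Canx (ENSRNOG00000003343), the membrane-bound relative of Calr, had 120, 176 and 164 FPKM in Adsh and 222, 176 and 170 FPKM in Adcon. It was not raised in Adsh 2, where it stood at 0.928 times the Adcon mean.

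The disulphide isomerases varied less between libraries than Hspa5, Hsp90b1 and Calr. Pdia3 (ENSRNOG00000015018), the partner of Calr and Canx, had 326, 553 and 287 FPKM in Adsh, against 386, 456 and 435 FPKM in Adcon. Pdia4 (ENSRNOG00000006228) had 80.4, 140 and 91.4 FPKM in Adsh, against 83.4, 108 and 114 FPKM in Adcon. Pdia6 stood at 0.813 to 1.49 times its Adcon mean over the Adsh libraries. All 3 isomerases were highest in Adsh 2, and their groups overlapped. Hyou1, a nucleotide exchange factor for Hspa5, stood at 0.495, 1.00 and 0.875 times its Adcon mean in Adsh 1 to 3, so that Adsh 2 matched the controls. The 8 genes had a median log2 change of 0.03, with 4 positive and 4 negative.

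The promoter of Hspa5 is shown because ER stress elements near the start of this gene are the classic route by which ATF6 and XBP1 raise it. The sequence is the 250 bases before the RefSeq transcript start in build GRCr8, chr3:38452766-38453015 on the + strand. Capitals mark the only exact ER stress element found in the window, CCAAT and CCACG with 9 bases between them, whose first base lies 43 bases before the start.
Hspa5: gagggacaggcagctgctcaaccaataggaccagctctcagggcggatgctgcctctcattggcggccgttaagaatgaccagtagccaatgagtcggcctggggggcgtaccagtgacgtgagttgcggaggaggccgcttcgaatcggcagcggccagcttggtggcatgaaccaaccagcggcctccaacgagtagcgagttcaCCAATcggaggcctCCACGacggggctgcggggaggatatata

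The co-chaperones and secreted targets of the response were the most uniform group. All 6 had a positive log2 change, with a median of 0.46, and all 6 were highest in Adsh 2, where their median lay 1.18 above the Adcon mean on the log2 scale. The median was 0.35 in Adsh 1 and 0.07 in Adsh 3. No member of the group had an unadjusted limma p under 0.05.

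Sdf2l1 (ENSRNOG00000001859), which keeps Hspa5 clients from aggregating, had 17.5, 44.3 and 14.4 FPKM in Adsh 1 to 3, against 11.6, 11.1 and 13.6 FPKM in Adcon 1 to 3. Manf (ENSRNOG00000014201), a small protein secreted under ER stress, had 147, 371 and 136 FPKM in Adsh, against 125, 127 and 124 FPKM in Adcon. Dnajb11 (ENSRNOG00000001803), a J-domain partner of Hspa5, had 61.0, 82.1 and 53.8 FPKM in Adsh and 42.5, 51.1 and 47.8 FPKM in Adcon. In these 3 genes every Adsh library lay above every Adcon library, with Adsh 3 close to the controls. The limma log2 changes were 0.85 for Sdf2l1, 0.63 for Manf and 0.45 for Dnajb11, with adjusted p of 0.433, 0.533 and 0.416.

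Dnajc3 (ENSRNOG00000010352), an ER J-domain protein also known as an inhibitor of the kinase PERK, had 64.4, 107 and 52.3 FPKM in Adsh, against 56.4, 49.6 and 47.3 FPKM in Adcon. Dnajb9 (ENSRNOG00000004006), a J-domain protein that in mammals represses Ern1, had 12.8, 25.4 and 11.8 FPKM in Adsh, against 14.0, 13.1 and 12.8 FPKM in Adcon. Both were highest in Adsh 2, while in Adsh 3 Dnajc3 lay within and Dnajb9 below the Adcon range. Creld2, another secreted ER stress target, ranged from 0.633 to 2.49 times its Adcon mean over the Adsh libraries.

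**Figure D2:**
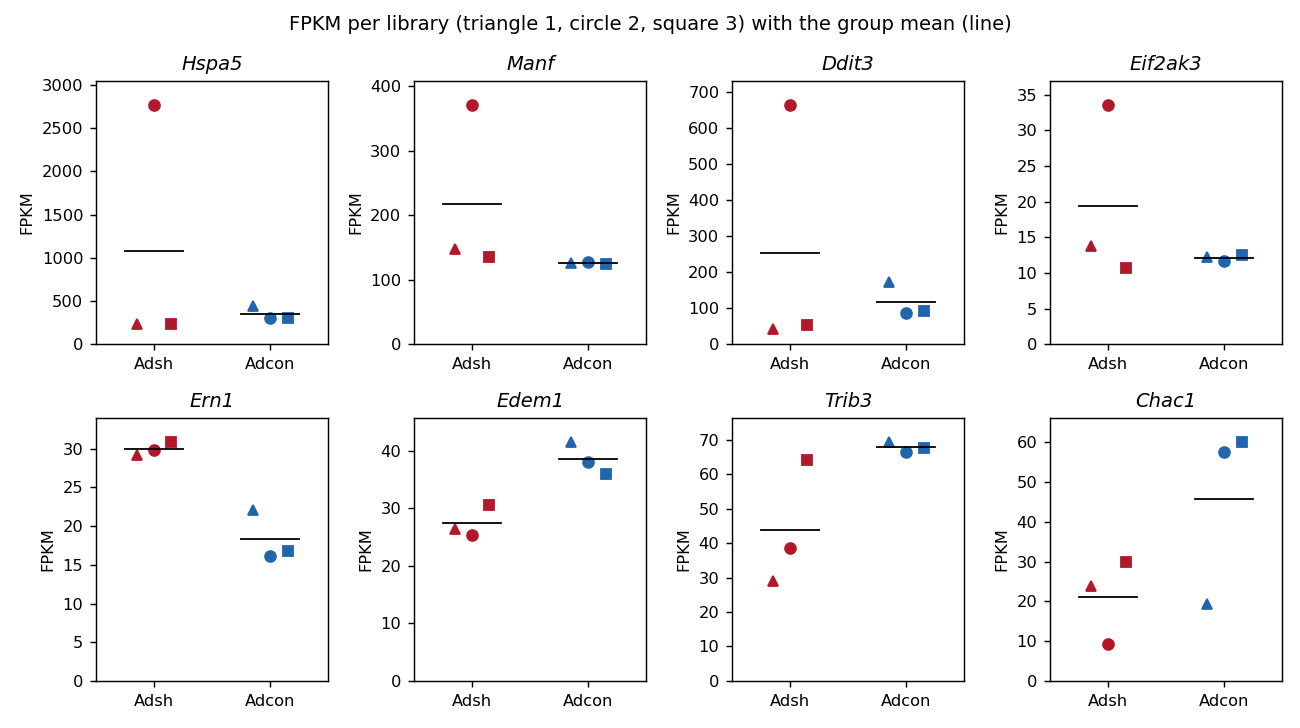
FPKM of 8 members in each input library, Adsh on the left and Adcon on the right of each panel, with a line at the group mean of 3 libraries; each panel has its own linear axis from 0. Hspa5, Manf, Ddit3 and Eif2ak3 have 1 high point, Adsh 2, whereas the Ern1 and Edem1 groups are separate with little spread.

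Among the 6 genes of ER-associated degradation, which pulls failed proteins back to the cytosol for the proteasome, 5 were highest in Adsh 2. The exception was Edem1 (ENSRNOG00000055365), a lectin-like protein that sends trimmed glycoproteins to degradation. It had 26.4, 25.3 and 30.6 FPKM in Adsh 1 to 3, against 41.6, 38.0 and 35.9 FPKM in Adcon 1 to 3. All 3 Adsh libraries lay below all 3 Adcon libraries, and Adsh 2 was the lowest of the 6. The means were 27.4 ± 2.82 FPKM in Adsh and 38.5 ± 2.86 FPKM in Adcon (SD, n = 3 each). The limma log2 change was -0.48 with a standard error of 0.16, and its adjusted p was 0.325, from 0.0180 unadjusted. The change was negative under each of the 15 other settings tried.

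Sel1l (ENSRNOG00000004464), the scaffold of the degradation complex, had 31.4, 95.0 and 45.3 FPKM in Adsh, against 64.3, 47.3 and 45.0 FPKM in Adcon. Syvn1 (ENSRNOG00000020950), the ubiquitin ligase HRD1 that Sel1l holds, had 14.5, 22.8 and 12.4 FPKM in Adsh, against 17.1, 16.8 and 16.3 FPKM in Adcon. Both were highest in Adsh 2, and the other Adsh values lay within or below the Adcon range. Herpud1, which recruits this complex, stood at 0.637, 1.21 and 0.699 times its Adcon mean in Adsh 1 to 3. Derl1 and Derl2, membrane proteins of the exit channel, ranged from 1.02 to 1.67 and from 1.04 to 1.35 times the Adcon mean over the Adsh libraries.

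The sensors differed among themselves. Ern1 (ENSRNOG00000012864), the kinase and endonuclease IRE1alpha, had 29.2, 29.8 and 30.9 FPKM in Adsh 1 to 3, against 22.1, 16.1 and 16.7 FPKM in Adcon 1 to 3. The Adsh libraries agreed closely and lay above all Adcon libraries, of which Adcon 1 came nearest. The means were 30.0 ± 0.873 FPKM in Adsh and 18.3 ± 3.29 FPKM in Adcon (SD, n = 3 each). The limma log2 change was 0.69 with a standard error of 0.17, and its adjusted p was 0.273, from 0.00486 unadjusted. The change was positive under each of the 15 other settings. With library quality weights, which give noisy libraries less weight, its adjusted p was 0.0453, in a range up to 0.803 over those settings.

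Eif2ak3 (ENSRNOG00000006069), the kinase PERK, had 13.7, 33.6 and 10.7 FPKM in Adsh, against 12.3, 11.7 and 12.5 FPKM in Adcon. Atf6 (ENSRNOG00000024632) had 46.3, 85.3 and 87.7 FPKM in Adsh, against 84.7, 59.6 and 58.5 FPKM in Adcon. Eif2ak3 was high in Adsh 2 alone, whereas Atf6 was high in Adsh 2, Adsh 3 and Adcon 1. For these 2 sensors the groups overlapped, with adjusted p in limma of 0.652 and 0.930.

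The transcription factors Xbp1 and Atf4 did not stand out in Adsh 2. Xbp1 (ENSRNOG00000010298), whose spliced form drives chaperone and degradation genes, had 47.5, 67.2 and 68.3 FPKM in Adsh, against 63.4, 58.1 and 63.5 FPKM in Adcon. Atf4 (ENSRNOG00000017801) had 132, 214 and 218 FPKM in Adsh, against 184, 230 and 238 FPKM in Adcon. Adsh 1 was the lowest library for both, and the other Adsh values lay near the controls. FPKM per gene does not separate spliced from unspliced Xbp1, and Atf4 and Atf6 are regulated largely after transcription.

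Ddit3 (ENSRNOG00000006789), the transcription factor CHOP that links lasting ER stress to cell death, had 41.4, 664 and 53.1 FPKM in Adsh, against 172, 87.7 and 91.0 FPKM in Adcon. Adsh 2 stood 3.87 times above the next library, Adcon 1, and the other Adsh libraries were the lowest of the 6. Recovered fragments were 280, 5018 and 339 in Adsh and 1826, 634 and 698 in Adcon. The limma log2 change was 0.04 with a standard error of 1.00 and an adjusted p of 0.992, and it was -1.23 without Adsh 2.

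Most outputs of ATF4 and CHOP in the module did not follow Ddit3. The group of 6 genes also holds Gfpt1 of the hexosamine pathway, which was highest in Adsh 2. In Adsh 2, 4 of the 6 were at their lowest, and the median of all 6 lay 0.58 below the Adcon mean there on the log2 scale. Trib3 (ENSRNOG00000007319), a pseudokinase that restrains ATF4 and AKT signalling, had 29.2, 38.5 and 64.1 FPKM in Adsh 1 to 3, against 69.5, 66.6 and 67.6 FPKM in Adcon 1 to 3. All Adsh libraries lay below all Adcon libraries, although Adsh 3 came close. The limma log2 change was -0.69 with a standard error of 0.28, and its adjusted p was 0.387, from 0.0429 unadjusted.

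Chac1 (ENSRNOG00000014387), an enzyme that degrades glutathione, had 23.9, 9.37 and 29.8 FPKM in Adsh, against 19.3, 57.6 and 60.1 FPKM in Adcon. Asns (ENSRNOG00000007546), asparagine synthetase, had 50.3, 48.9 and 95.7 FPKM in Adsh, against 72.1, 93.5 and 88.9 FPKM in Adcon. Adsh 2 was lowest for both, but Adcon 1 was also low for Chac1 and Adsh 3 was the highest library for Asns, so that the groups overlapped. Chac1, Sdf2l1 and Dnajb11 are given in full after their values had been seen.

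Sesn2 (ENSRNOG00000042785), a stress sensor that restrains mTORC1, had 67.3, 45.6 and 69.6 FPKM in Adsh and 56.0, 59.1 and 63.8 FPKM in Adcon. Ppp1r15a, the phosphatase subunit GADD34 that reverses eIF2alpha phosphorylation, stayed between 0.860 and 1.07 times its Adcon mean. Neither had groups that separated. Gfpt1 (ENSRNOG00000018507), the first enzyme of the hexosamine pathway and an XBP1 target in mammals, had 36.9, 53.8 and 33.4 FPKM in Adsh, against 31.4, 30.6 and 29.7 FPKM in Adcon. As in Sdf2l1, Manf and Dnajb11, all Adsh libraries lay above all Adcon libraries, with a log2 change of 0.39 and a limma adjusted p of 0.482.

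Other genes of the same pathways gave few differences, to be read against the background of all genes at the same unadjusted p, 5.53% with higher and 6.95% with lower Adsh values. Of 15 other ER folding enzymes tested, Ero1a stood higher (log2 change 0.47), and Ganab (-1.38) and Fkbp14 (-0.63) lower, at an unadjusted limma p under 0.05. Ero1a re-oxidises the isomerases, Ganab is a subunit of the glucosidase that readies glycoproteins for Calr and Canx, and Fkbp14 is a collagen-binding prolyl isomerase. Ganab had 30.6, 57.3 and 40.6 FPKM in Adsh, against 126, 100 and 104 FPKM in Adcon. Its groups were well apart, but its adjusted p was 0.205. Of 21 other degradation genes, Nploc4 (0.49) and Man1b1 (0.37) stood higher and Ngly1 (-0.61) lower at that p.

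Of 35 other genes of the integrated stress response and amino acid supply, 1 stood higher at an unadjusted p under 0.05, Atf3 (log2 change 1.39), and 4 lower, Vldlr (-1.43), Ddit4 (-0.39), Nupr1 (-0.91) and Pycr1 (-0.57). Their median log2 change was -0.20. Adsh 2 held the lowest value for 17 of these 35 genes (48.6%), against 27.1% of all genes, and Adsh 3 the highest for 15 (42.9%), against 17.5% of all genes. Adsh 2 held the highest value for 6, among them the stress cytokine Gdf15, named after its values had been seen, at 8.09 times the Adcon mean. Among 16 other transducers, the ER membrane protein Wfs1 stood higher (0.56) and the membrane-bound factor Creb3l2 lower (-0.89).

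The translocon, signal peptidase and oligosaccharyltransferase genes, which bring new proteins into the ER, had 21 of 25 negative changes and a median of -0.11, against 6914 of 13450 and -0.01 over all genes. Of these, 4 had an unadjusted p under 0.05, Sec61b (-0.79), Ssr3 (-0.98), Spcs2 (-0.42) and Krtcap2 (-0.62). For the 17 genes of COPII, the coat that carries cargo out of the ER, and the 6 of the hexosamine pathway, that count was 0. COPII genes went with the chaperones by library: 11 of 17 (64.7%) were highest in Adsh 2, against 26.3% of all genes, and 12 (70.6%) were lowest in Adsh 1, against 18.8%. No gene of these lists passed an adjusted p of 0.05 in limma.

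**Figure D3:**
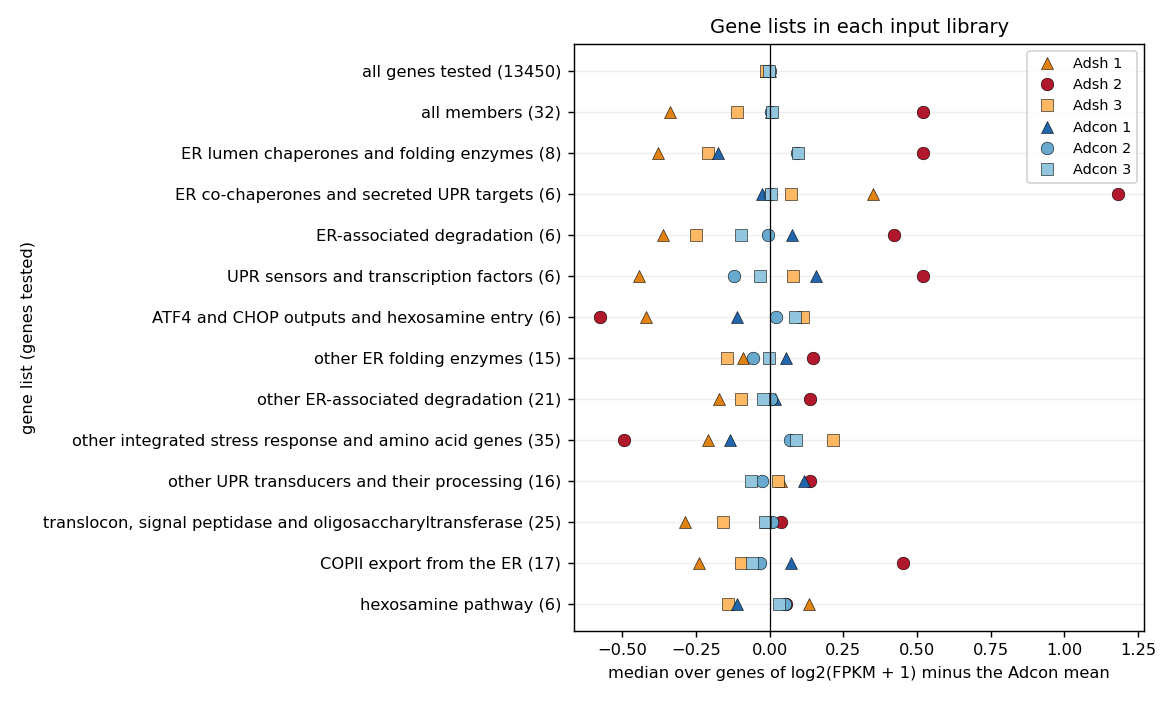
For each gene list, the median over its genes of log2(FPKM + 1) minus the Adcon mean, with 1 symbol per input library and the number of genes tested in brackets. Adsh 2 lies at 1.18 for the co-chaperones and at 0.52 for the chaperones. It lies at -0.58 for the ATF4 and CHOP outputs taken with Gfpt1, and at -0.50 for the other integrated stress response and amino acid genes. All genes tested lie at -0.01.

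Promoter sequences were searched for the elements that the factors of this response are known to bind. RefSeq windows of 300 bases, 250 before and 50 after the start in build GRCr8, were present for 26 of the 32 members. Pdia3, Pdia6, Manf, Atf6, Ern1 and Derl1 had none in the table. The ER stress element, CCAAT and CCACG 9 bases apart on either strand, was in 22 of 33469 windows (0.0657%) and in 7 of the 26 members (26.9%). Among them were Hspa5, Hsp90b1, Calr, Dnajc3, Creld2 and Xbp1. Of the 7, 5 were highest in Adsh 2, and Xbp1 was not, while 62.5% of all members were highest there. Of the 14 other genes with the element, 8 were tested and 2 were highest in Adsh 2, Ero1b and Pan2. Sites of these named members other than Hspa5, shown above, are printed below with 10 bases on either side, read 5′ to 3′ on the strand that carries CCAAT, and capitals mark the conserved ends.
Hsp90b1 (farther from the start): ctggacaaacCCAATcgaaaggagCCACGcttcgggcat
Hsp90b1 (nearer the start): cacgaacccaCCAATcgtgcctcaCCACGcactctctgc
Calr: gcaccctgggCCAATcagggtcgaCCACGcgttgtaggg
Dnajc3: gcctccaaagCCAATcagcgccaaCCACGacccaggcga
Creld2: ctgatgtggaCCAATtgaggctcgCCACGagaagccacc
Xbp1: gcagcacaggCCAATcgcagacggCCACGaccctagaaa

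The Hsp90b1 sites lie at chr7:23012451-23012469 on the - strand and chr7:23012347-23012365 on the + strand. The base of each site farthest from the start lies 176 and 72 bases before it. The Calr site is at chr19:40213135-40213153 (-) and the Dnajc3 site at chr15:102432534-102432552 (+). Creld2 has its site at chr7:121789239-121789257 (-) and Xbp1 at chr14:84604558-84604576 (+). Across these members the site base farthest from the start lies 65 to 232 bases before it.

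A second form of the element, ATTGG and CCACG 1 base apart on either strand, was in 17 windows (0.0508%) and in 3 members, Hyou1, Herpud1 and Dnajb11. It was added to the search after the data had been seen. Hyou1 has 2 sites, at chr8:53602694-53602704 and chr8:53602794-53602804, both on the - strand. The motif TGACGTGG, searched on either strand, was in 0.595% of windows and in 1 member, Hyou1, where it overlaps the site farther from the start.
Hyou1 (farther from the start): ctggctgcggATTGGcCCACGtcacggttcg
Hyou1 (nearer the start): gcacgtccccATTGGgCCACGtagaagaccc
Herpud1: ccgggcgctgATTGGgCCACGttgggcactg

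The ATF4 element TGATGNAA, on either strand, was in 3.98% of windows and in 3 members, Chac1, Trib3 and Herpud1. It is shown for Chac1 and Trib3, the pair of these members whose Adsh 2 values lay below the whole Adcon range. Herpud1 lay above that range in Adsh 2, at 1.2 times its Adcon mean. Asns, Sesn2, Ppp1r15a and Edem1 lay below their Adcon ranges in Adsh 2 and had no such element in their windows. A link of the element with these levels was not tested. The Chac1 site is at chr3:126795964-126795971 (-) and the Trib3 site at chr3:161275547-161275554 (+). A match of letters is a description and does not show that a factor was bound.
Chac1: ctagcaggagTGATGCAAcggcggagaa
Trib3: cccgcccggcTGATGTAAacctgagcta

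The ac4C lists of the members covered the abundant chaperones in both groups. The authors' lists held 3111, 2658 and 2592 peaks for Adsh 1 to 3, against 29998, 29593 and 3479 for Adcon 1 to 3. In Adcon 1, 26881 rows share the p-value 0.045 and in Adcon 2, 27673 share 0.046. These rows were left out of the member counts in this paragraph and of its share of all genes. They were kept in the patterns across libraries of the later paragraphs and in the shares of all genes there. Keeping them can only raise the share of a pattern that needs an Adcon peak, and only lower one that needs no Adcon peak. With these rows left out, a peak was listed for 11, 11 and 14 members in the Adsh lists and for 13, 11 and 13 in the Adcon lists. Of the 32 members, 25 had a peak in at least 1 library, against 47.6% of all genes tested. The members were also better expressed, with a median of 60.7 FPKM in Adcon, against 9.77 FPKM over all genes there, and the part of expression level in these counts was not tested. The 7 members with no peak were Pdia4, Sdf2l1, Creld2, Edem1, Xbp1, Trib3 and Ppp1r15a.

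A peak in all 6 libraries was listed for 5 members, Hspa5, Hsp90b1, Calr, Canx and Pdia3. This applied to 2.39% of all genes and to 4.94% of the 5063 genes at least as high as the lowest member. Hspa5 had the stretch chr3:13842524-13842673 (+) within a peak of all 6 libraries. Hsp90b1 shared chr7:27227396-27227485 (-), Calr chr19:25957392-25957519 (-) and Pdia3 chr3:113400528-113400707 (+) across all 6. Canx shared chr10:35805237-35805357 (-) in 5 libraries, Adcon 2 having its peak elsewhere in the gene. For peaks, rn6 is the only rat build the submitters' notes name, with no role stated, and the exon or UTR position was not analysed here.

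Peaks in at least 1 library of each group were listed for 10 members, against 23.6% of all genes. The rows at the shared p, kept here, can only raise this share. Besides the 5 above, the 10 members were Atf4, Ddit3, Asns, Dnajb9 and Herpud1. Atf4 had a peak in all 3 Adsh libraries and 2 Adcon libraries, sharing chr7:121482653-121482772 (+). Ddit3 had one in Adsh 2, Adsh 3 and Adcon 3, sharing chr7:70584637-70584786 (+), so that it was listed in the library where Ddit3 RNA was highest but also in 1 where it was among the lowest. Asns had the same peak, chr4:33743364-33743512 (-), in Adsh 2 and in all 3 Adcon libraries. Dnajb9 was listed in Adsh 3 and all 3 Adcon libraries.

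A peak in all 3 Adcon libraries and no Adsh library was listed for 1 member, Sel1l, against 1.81% of all genes and 1.26% of those at least as high as the lowest member. The shared stretch is chr6:115572679-115572918 (-), and the authors' p-values for it were 1e-130, 1e-148 and 5e-16 in Adcon 1 to 3. Sel1l RNA in the input did not separate the groups, and it was highest in Adsh 2, where no peak was listed. The reverse pattern, all 3 Adsh and no Adcon library, was listed for 2 members, Gfpt1 and Dnajc3. It applied to 0.201% of all genes and 0.435% of the well-expressed ones. The rows at the shared p, kept here, can only lower these shares, so the comparison does not measure an excess in the members. The Gfpt1 peaks share chr4:118901411-118901561 (+). The Dnajc3 peaks share chr15:104224905-104225005 (+) in Adsh 2 and Adsh 3, while that of Adsh 1 lies elsewhere in the gene. Both genes were also among those with higher input values in Adsh 2, at 1.76 and 2.09 times the Adcon mean. A gene missing from a list was not called there, which does not show that it lacked ac4C, and the depth of these libraries is unknown.

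Further members were listed in 2 libraries of a single group. Manf, Ern1 and Eif2ak3 were listed in 2 Adcon libraries and no Adsh library. Syvn1 was listed in Adcon 1 and Adcon 2, in the second of these only by rows at the shared p. The Ern1 peaks of Adcon 2 and Adcon 3 share chr10:94588794-94588974 (-), in the group where its RNA was lower. The Manf peaks of Adcon 1 and Adcon 3 share chr8:115623178-115623352 (-), while those of Eif2ak3 do not overlap. Sesn2 was listed in Adsh 1 and Adsh 3 and in no Adcon library, sharing chr5:150684163-150684312 (-).

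NAT10 RIP lists, from cells without virus, held 2268, 1993 and 1773 peaks. Of the 32 members, 8 were in at least 1 list, against 5.93% of all genes. Of these, 3 were in all 3 lists, Hsp90b1, Calr and Pdia4, against 2.68% of all genes and 6.46% of those at least as high as the lowest member. Their mean levels were 103 to 619 FPKM, whereas the 24 members without a NAT10 peak had a median of 53.0 FPKM. The share for at least 1 list was taken over all genes only, and the part of expression level in these counts was not tested. Hspa5 and Pdia3 were in 2 lists, and Ppp1r15a, Sel1l and Hyou1 in 1.

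Hsp90b1 had 7, 7 and 4 NAT10 peaks and Pdia4 had 6, 6 and 5 in lists 1 to 3, whereas Calr had 2 in each. The highest log2 enrichment the authors gave for a peak of Pdia4 was 1.23, 1.22 and 1.29 in the 3 lists. For Hsp90b1 it was 1.08, 1.09 and 1.05, near the median of all peaks in those lists, which was 1.09, 1.07 and 1.09. For Calr the highest was 1.00, 0.957 and 1.04, below that median in each list. Pdia4 is the member of this group with no ac4C peak in any library. Both ac4C in all 6 libraries and NAT10 in all 3 lists held for 2 members, Hsp90b1 and Calr, against 0.312% of all genes. Their means over the input libraries were 465 and 619 FPKM, and no share among well-expressed genes was taken for this pattern. In Hsp90b1 the union of its ac4C peaks covered 1766 nt and that of its NAT10 peaks 1225 nt, of which 830 nt lay in both. In Calr 59 nt lay in both, of 623 nt of ac4C peaks and 325 nt of NAT10 peaks, and in Hspa5 66 nt, of 479 nt and 500 nt. The gene lengths found from the FPKM values were 3195 nt for Hsp90b1, 1865 nt for Calr and 2562 nt for Hspa5. Whether these overlaps differ from those of peaks placed at random was not tested.

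**Figure D4:**
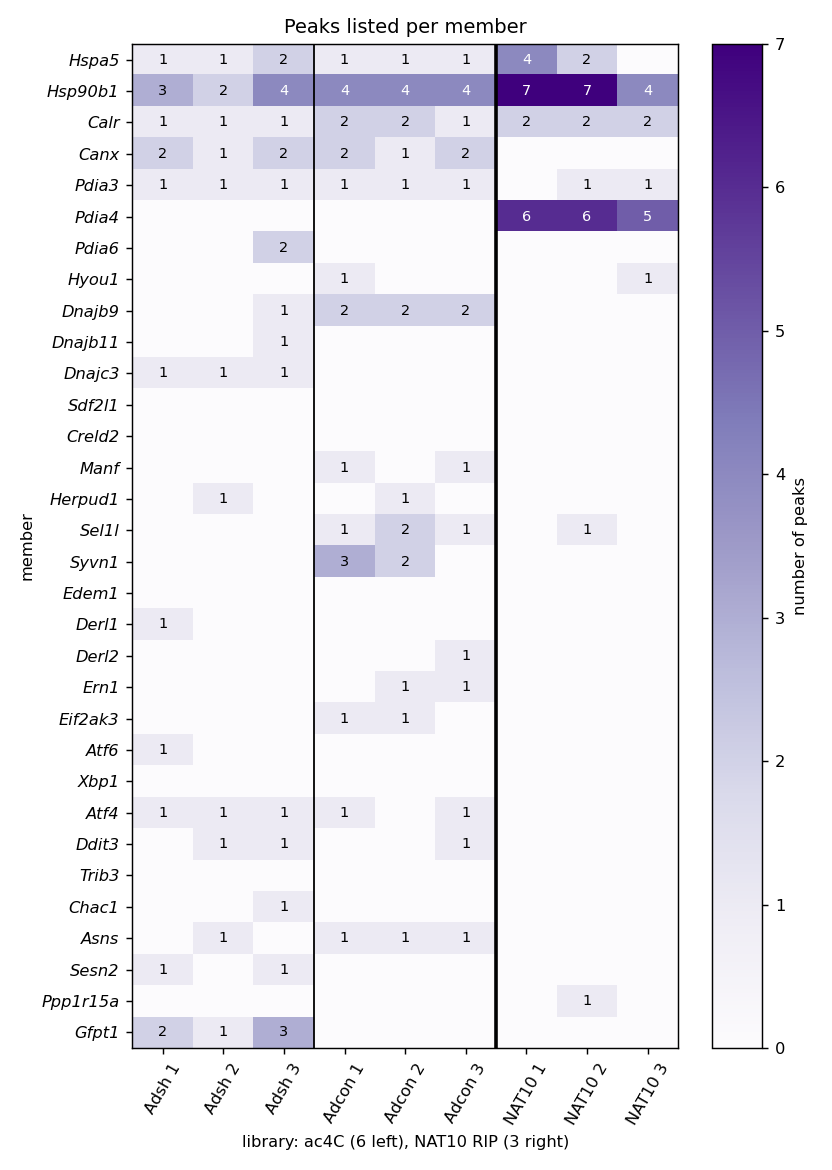
Number of listed peaks per member (rows, by role) and library (columns: ac4C in Adsh 1 to 3 and Adcon 1 to 3, then NAT10 RIP 1 to 3), rows at the shared p included; a blank cell is a gene not listed. Hspa5, Hsp90b1, Calr, Canx and Pdia3 are filled across all 6 ac4C columns, and among the ac4C columns Sel1l is filled only in the Adcon ones and Gfpt1 and Dnajc3 only in the Adsh ones; Sel1l is also filled in NAT10 2, and Pdia4 only in the NAT10 columns.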

How the data were processed

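The authors deposited FPKM per gene for the 6 input libraries and, for each ac4C and NAT10 RIP library, a peak list with a p-value per peak, and for NAT10 RIP a log2 enrichment, per the file headers. The submitters' processing notes name HISAT2 2.1.0, HOMER 4.10.4 and featureCounts 1.6.3 without giving their roles. For ac4C, neither the caller nor whether its p is adjusted is given in the sources used here. From these values, log2(FPKM + 1) was tested with limma 3.58.1 (R 4.3.3), two-sided, with a variance trend, over genes averaging 1 FPKM or more, with Benjamini-Hochberg adjustment over 13450 genes. All log2 changes use this scale and understate those of low genes. A search over gene lengths found whole fragments behind all 21401 of the 21401 genes above 0 (relative tolerance 2e-08), and behind 0 of 171 genes with altered values; a voom fit on them called 0 genes. The fit was tested on simulated data. Peaks were matched by Ensembl gene ID, with positions counted from 1. Gene members and lists were chosen with earlier results of these data known. Per-library values are given for members with an unadjusted p under 0.05, peaks in 2 libraries or a role as sensor or factor. Other settings left out each library, or changed the pseudocount, filter, scaling, weights or block. The non-immunoprecipitated RIP library was not used here, and 1 promoter site is not reported here.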

Additional observations from a re-analysis of the deposited data

How the results depend on the processing

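No member passed an adjusted p of 0.05 in limma in any setting except 1, Ern1, with library quality weights, where 335 genes passed; at an unadjusted p under 0.05 the members then numbered 5 higher and 8 lower in Adsh, and 3520 of 13450 genes had such a p. Members higher at that p numbered 2 with no filter on low values and 1 to 5 when each library was left out (5 without Adsh 3). Genes with such a p in either direction then numbered 1959 of 21401 with no filter and 2581 of 13436 without Adsh 3. Counts of members are to be read against those shares. Members lower numbered 0 to 4 (4 without Adsh 2, 0 without Adcon 2) and 0 with Adcon 2 and 3 averaged. Over all genes, 0 to 1 passed when a library was left out. Deviations from the group means correlated at -0.21, -0.28 and 0.18 between libraries of the same number, and no Adsh library correlated best with its own number. Deviations within a group sum to 0, so these values are tied together and cannot exclude pairs. The labels do not say what a number marks. The fit with a replicate block gave 1 member higher and 0 lower. Members listed for ac4C in all 3 Adcon and no Adsh library numbered 2 at p of 0.01 or below and 1 to 3 with a library left out (3 without Adcon 3), and those with NAT10 in all 3 lists 1 above the median enrichment.

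Log2 changes that turned sign with a library left out ranged from -0.53 to 1.24 for Hspa5, -0.28 to 0.53 for Hsp90b1, -0.21 to 0.53 for Calr, -0.21 to 0.22 for Pdia6, -0.10 to 0.42 for Dnajb9, -0.094 to 0.85 for Creld2, -0.0049 to 0.78 for Eif2ak3 and -1.23 to 0.76 for Ddit3, each lowest without Adsh 2; Pdia6 was also negative without Adcon 1, and Ddit3 without Adcon 2 or Adcon 3. They ranged from -0.23 to 0.16 for Pdia4, -0.44 to 0.34 for Sel1l, -0.30 to 0.12 for Syvn1, -0.081 to 0.37 for Atf6, -0.12 to 0.13 for Xbp1 and -0.10 to 0.20 for Sesn2. With quality weights the change was -0.22 for Hsp90b1, -0.30 for Calr, -0.12 for Pdia6, -0.090 for Atf6 and -0.62 for Ddit3. With Adcon 2 and 3 averaged it was 0.067 for Pdia4, -0.0091 for Atf6 and -0.12 for Ddit3. Total rescaling gave 0.026 for Pdia4 and 0.024 for Sel1l, quantile normalization 0.14 for Pdia4, 0.086 for Sel1l and 0.050 for Xbp1, and voom 0.0062 for Sel1l. The cause was not tested. With 3 libraries a group and 1 of them far from the rest, changes of members that move with Adsh 2 could not be estimated closely, and peak lists give no depth.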
